A study of Mus musculus with 9 samples.

Results

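The genes described here are 10 CXC and CX3C chemokine ligands, Cxcl1, Cxcl2, Cxcl5, Cxcl9, Cxcl10, Cxcl12, Cxcl13, Cxcl14, Cxcl16 and Cx3cl1, chosen by gene symbol from a table of 21898 mouse genes. All 10 were found in the table once each and all 10 passed the filter on low counts, which left 13200 genes tested. These members, and the gene lists used below, were chosen with earlier results of these data known. Their counts beside the shares of all genes are therefore descriptive. Liver RNA of C57BL/6 mice was sequenced in 9 libraries, 3 from each of 3 groups to which mice were assigned at random. The normal group, labelled WT for wild type, was the reference and received saline. The model group had metabolic-associated fatty liver disease (MAFLD) induced by an MCD diet, which lacks methionine and choline. The TA group had the same disease induction and was treated with tormentic acid, abbreviated TA, which is a triterpenoid found in plants. The labels describe its dose as high. The amount of TA, the time of collection and the age and sex of the mice are not given in the sources used here, and neither is whether the model and TA groups received saline.

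Chemokines are small secreted or membrane-tethered proteins that guide leukocytes along a concentration gradient through G protein-coupled receptors. Cxcl1, Cxcl2 and Cxcl5 bind Cxcr2 and draw neutrophils. Cxcl9 and Cxcl10 are induced by interferons and draw activated T and NK cells through Cxcr3. Cxcl12 and Cxcl13 are mainly homeostatic and act on Cxcr4 and Cxcr5, whereas the signalling receptor of Cxcl14 is not settled. Cxcl16 and Cx3cl1 are made as transmembrane proteins that can be shed by proteases, and bind Cxcr6 and Cx3cr1. In liver these ligands come from hepatocytes, sinusoidal endothelium, Kupffer cells and other macrophages, stellate cells and bile duct cells.

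Library totals were 13950065 to 16475794 counts in the normal, 15519086 to 16086294 in the model and 13710002 to 16464308 in the TA group. Levels are given as CPM, the read count scaled by a library size that was adjusted with the trimmed mean of M-values (TMM), so differences are relative to the bulk of the genes. With library totals in place of TMM factors, the median of all tested genes moved to 0.69 for model against normal, -0.59 for TA against model and 0.14 for TA against normal on the log2 scale. Tests are edgeR quasi-likelihood tests with Benjamini-Hochberg adjustment over all 13200 genes and a threshold of 0.05 on the adjusted p for a call. The ± after a log2 fold change is its standard error with 3 libraries per group, and the ± after a CPM is the SD (n = 3). Whether the libraries of a group stem from separate mice is not stated in the labels, so p-values measure only the spread between libraries, which may be technical. Hepatocyte markers summed to 113566 to 140677 CPM in normal, 43738 to 72586 CPM in model and 100528 to 134644 CPM in TA libraries, so the labelled tissue was present in every library. On the TMM scale the sum of these markers was lower in the model group. In bulk tissue, fewer cells of a type, less RNA per cell and lower expression of the markers within the cells cannot be told apart.

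In the model livers 6 of the 10 ligand genes rose against normal (Cxcl2, Cxcl5, Cxcl10, Cxcl14, Cxcl16 and Cx3cl1), 2 fell (Cxcl12 and Cxcl13) and 2 were not called (Cxcl1 and Cxcl9). Among all tested genes 48.1% were called in this comparison, 25.4% higher and 22.6% lower. The same 6 ligands lay above, and the same 2 below, the normal group with no overlap between libraries, which held for 31.3% of all genes upward and 30.0% downward. The members' median log2 fold change was 1.80, or 1.80 with Cxcl5 set to its lower bound, beside 0.00472 over all genes. In TA against model 4 ligands fell (Cxcl5, Cxcl10, Cxcl14 and Cxcl16), none rose and 6 were not called, beside 23.0% of all genes called, 11.1% lower and 11.8% higher. Those 4 did not overlap the model libraries, as was so for 20.1% of all genes downward. The median of the 10 was -0.65, beside -0.0135 over all genes. In TA against normal 4 ligands rose (Cxcl2, Cxcl10, Cxcl14 and Cxcl16), beside 10.7% of all genes, and none fell, beside 5.03%, with 15.8% called in either direction. The median of the 10 was 1.05 there, beside 0.0337 over all genes. Both TA against model and model against normal use the model libraries, and the values of the comparisons are therefore not independent.

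**Figure D1:**
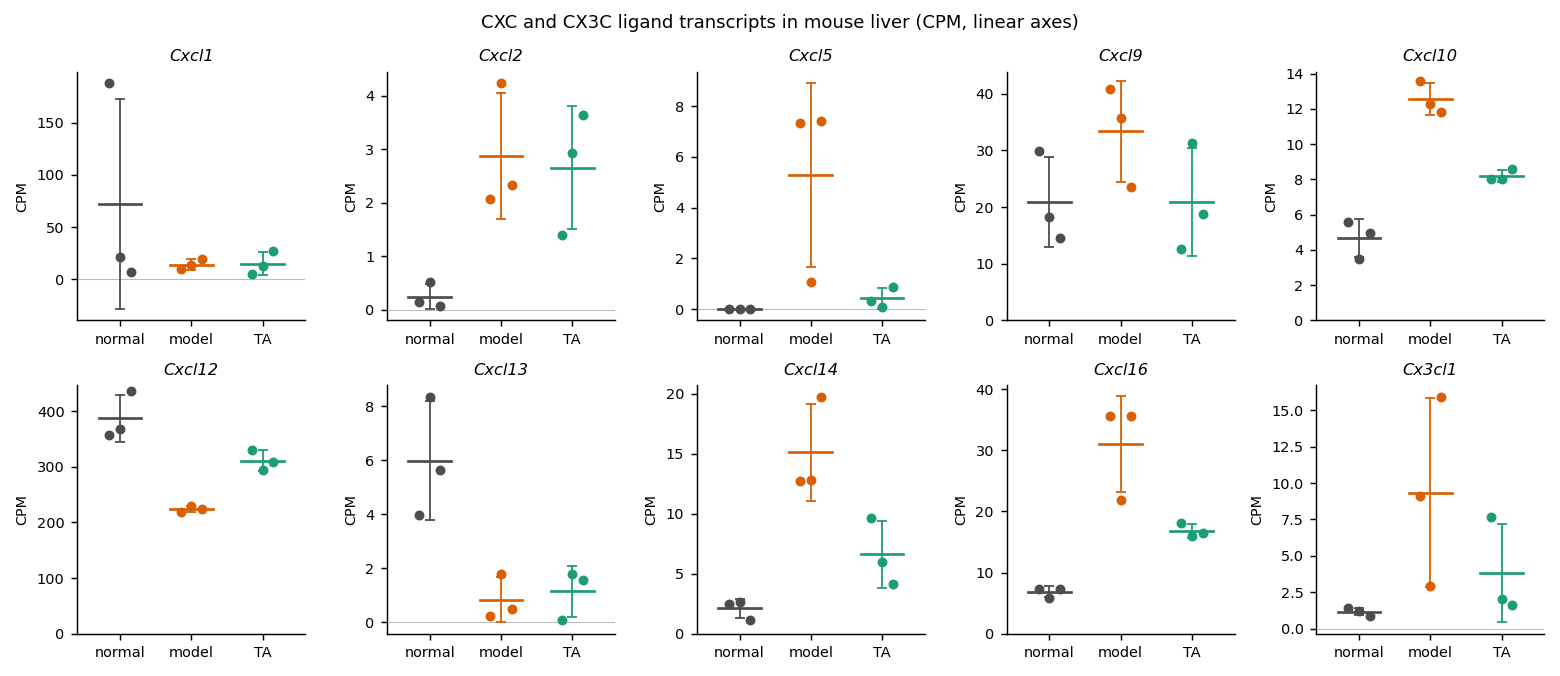
Level of each ligand gene in CPM (vertical axes, linear) in every library of the normal, model and TA groups; points are libraries, horizontal lines are means and bars are 1 SD (n = 3). Cxcl10, Cxcl14 and Cxcl16 stand highest in the model group, Cxcl12 stands lowest there, and the normal Cxcl1 mean rests on 1 library at 188 CPM.

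The counts of called ligands were steady for model against normal and were not for TA against model. Leaving out any 1 of the 9 libraries left 7 to 9 of the 10 called for model against normal. For TA against model no ligand was called without model replicate 1 or without model replicate 3, and 2 were called without TA replicate 2 or TA replicate 3. The numbers of genes called among all tested fell in the same fits, from 3031 to 1444, 1436, 2159 and 1651 in turn. For TA against normal 2 ligands were called without normal replicate 3, and the number of all genes fell from 2081 to 1092. Without normal replicate 1 that number was 1332, with 4 ligands called.

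**Figure D2:**
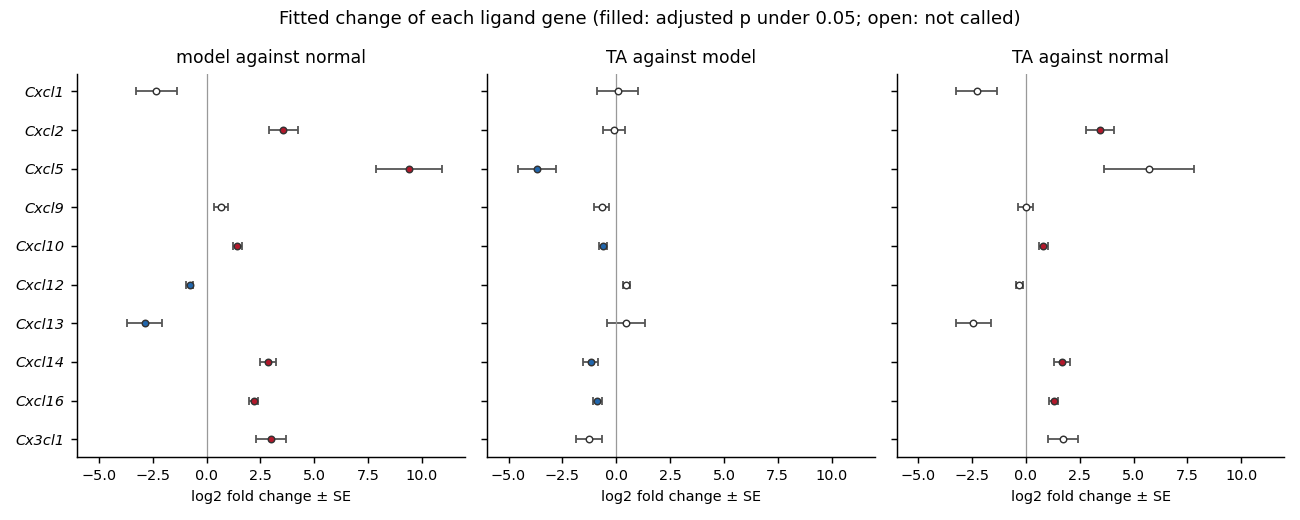
Fitted log2 fold change of each ligand gene in the 3 comparisons; bars are standard errors, filled points passed an adjusted p under 0.05 and open points did not. For model against normal 6 filled points lie to the right of 0 and 2 to the left, and for TA against model all 4 filled points lie to the left.

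Of the neutrophil attractants, Cxcl5 and Cxcl2 rose in the model group and Cxcl1 was not called. Cxcl5 (ENSMUSG00000029371, chromosome 5, 90759360 to 90761624 on GRCm38), which in mouse is known as an epithelial product, had 0 counts in each normal library. The model libraries, in the order of their numbers, held 7.33, 1.09 and 7.40 CPM, and the TA libraries held 0.302, 0.0816 and 0.869 CPM. All 3 model libraries lay above every TA library, and model replicate 2 lay near the highest TA library. Against a floor of 3 counts over the normal group, Cxcl5 was at least 72.0-fold higher in model (adjusted p = 0.000964) and at least 5.14-fold higher in TA, where the test was not called (adjusted p = 0.0984) but passed with DESeq2 (0.00729) and without model replicate 2 (0.0327). The TA group held 16 counts in all, against 357 in the model group. It fell in TA against model by 3.68 ± 0.86 on the log2 scale (adjusted p = 0.0159), or by 4.64 without TA replicate 3. That call was lost without model replicate 1 (adjusted p = 0.0574), without model replicate 3 (0.0564) and with limma-voom (0.0665), over a range of 0.000174 to 0.0665.

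Cxcl2 (ENSMUSG00000058427, chromosome 5, 90903871 to 90905938 on GRCm38), made by macrophages and other cells on inflammatory stimuli, stood at 0.147, 0.511 and 0.0741 CPM in the normal libraries. It stood at 2.07, 4.24 and 2.34 CPM in the model and 1.39, 2.94 and 3.65 CPM in the TA libraries. Model and TA levels overlapped, and both groups lay above every normal library. Against normal, Cxcl2 rose by 3.57 ± 0.66 in model (adjusted p = 0.00114) and by 3.44 ± 0.67 in TA (adjusted p = 0.00538). These values were 4.60 and 4.48 when normal replicate 2 was left out. TA against model gave -0.12 ± 0.51 (adjusted p = 0.884). The normal group held 9 counts in all, so its level is set by few reads. Of the 50-base stretches of its annotated transcripts, 5.84% also occur in other genes, most in the related Cxcl3.

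Cxcl1 (ENSMUSG00000029380, chromosome 5, 90891241 to 90893115 on GRCm38), also a Cxcr2 ligand, was not called in any of the comparisons. Its normal libraries stood at 188, 21.8 and 6.59 CPM, its model libraries at 9.80, 13.4 and 19.4 CPM and its TA libraries at 4.77, 13.1 and 27.1 CPM. The 3 groups overlapped, and normal replicate 1 lay far above every other library. The log2 fold change of model against normal was -2.34 ± 0.95 (adjusted p = 0.0599), and 0.00222 without normal replicate 1 (adjusted p = 0.998). Without normal replicate 2 it was -2.78 (adjusted p = 0.0429) and without normal replicate 3 it was -2.89 (0.0137). Without TA replicate 1 it was -2.36 (0.0497) and with no filter on low counts it was -2.35 (0.0355), so the call depended on the libraries kept and on the filter. TA against model gave 0.06 ± 0.94 (adjusted p = 0.970). Summed per kilobase of listed length, Cxcl1, Cxcl2 and Cxcl5 stood at 100.2, 11.9 and 3.55 CPM per kb in normal, 10.2, 9.79 and 15.5 in model and 3.38, 8.47 and 16.7 in TA replicates 1 to 3.

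The promoters of Cxcl1 and Cxcl2 are shown because both genes answer to NF-kB in other settings while their levels here differed in pattern. Both hold the same NF-kB letters close to the start. The 250 bases before each start, from RefSeq on GRCm38.p6 and both on the plus strand, are printed 5′ to 3′ with matches to the NF-kB motif in capitals, for Cxcl1 at chr5:90890995-90891244 and for Cxcl2 at chr5:90903649-90903898.
Cxcl1: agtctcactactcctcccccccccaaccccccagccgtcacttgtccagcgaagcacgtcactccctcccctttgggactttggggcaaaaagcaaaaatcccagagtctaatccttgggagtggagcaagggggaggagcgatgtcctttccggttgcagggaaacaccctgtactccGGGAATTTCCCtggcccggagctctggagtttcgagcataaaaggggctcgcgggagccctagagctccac
Cxcl2: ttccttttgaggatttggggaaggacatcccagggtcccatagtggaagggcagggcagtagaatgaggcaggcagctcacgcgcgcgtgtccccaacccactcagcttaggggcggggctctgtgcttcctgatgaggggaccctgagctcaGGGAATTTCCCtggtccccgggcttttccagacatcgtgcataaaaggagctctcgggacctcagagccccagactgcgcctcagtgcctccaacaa
The motif searched was GGGANNTTCC on both strands, and in each promoter 2 matches overlap, 1 on either strand. They begin at -71 in Cxcl1 and at -97 in Cxcl2, counted from the start. Of 32851 mouse promoters of 300 bases, 1.47% hold this motif. A match describes the letters only.

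Of the interferon-induced ligands, Cxcl10 rose in the model group and Cxcl9 was not called. Cxcl10 (ENSMUSG00000034855, chromosome 5, 92346638 to 92348889 on GRCm38) stood at 5.60, 3.49 and 4.96 CPM in normal, 13.6, 12.3 and 11.8 CPM in model and 8.03, 7.999 and 8.61 CPM in TA replicates 1 to 3. The 3 groups did not overlap, and the TA libraries lay between the other groups. Cxcl10 rose by 1.42 ± 0.21 in model against normal (adjusted p = 0.000267) and by 0.80 ± 0.21 in TA against normal (adjusted p = 0.0242). The latter call was lost without normal replicate 2 (adjusted p = 0.0770), normal replicate 3 (0.0670), TA replicate 2 (0.0551) or TA replicate 3 (0.0595) and in a fit of the 6 libraries compared (0.0548), over a range of 0.00985 to 0.0770. In TA against model it fell by 0.61 ± 0.20 (adjusted p = 0.0467), a call lost in 10 of 17 other fits. Those 10 included leaving out each model or TA replicate, normal replicate 1 or normal replicate 3, and the adjusted p ranged from 0.00232 to 0.155 over all 17. Its exons share 133 bases with those of Art3, an ADP-ribosyltransferase gene on the other strand, whose mean was 1.42, 3.08 and 2.63 CPM in normal, model and TA.

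Cxcl9 (ENSMUSG00000029417, chromosome 5, 92321347 to 92328079 on GRCm38) spread more widely within groups than Cxcl10. It stood at 29.9, 18.3 and 14.5 CPM in normal, 40.9, 35.7 and 23.5 CPM in model and 12.6, 31.3 and 18.8 CPM in TA libraries. The groups overlapped in each comparison. The log2 fold change was 0.67 ± 0.34 for model against normal (adjusted p = 0.125) and -0.68 ± 0.34 for TA against model (adjusted p = 0.175). Without normal replicate 1, model against normal was called at 1.02 (adjusted p = 0.0440), and library totals alone gave 1.36 (0.00538) and, for TA against model, -1.27 (0.0127). TA against normal gave -0.00681 ± 0.35 (adjusted p = 0.992).

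Cxcl10 and Cxcl9 are shown by their promoters because both are counted as interferon-induced while only Cxcl10 holds the letters searched. The 250 bases before each start, from RefSeq on GRCm38.p6 and both on the minus strand, are printed 5′ to 3′, for Cxcl10 at chr5:92348890-92349139 and for Cxcl9 at chr5:92328080-92328329. In Cxcl10 the capitals mark first the interferon-stimulated response element and then the NF-kB motif.
Cxcl10: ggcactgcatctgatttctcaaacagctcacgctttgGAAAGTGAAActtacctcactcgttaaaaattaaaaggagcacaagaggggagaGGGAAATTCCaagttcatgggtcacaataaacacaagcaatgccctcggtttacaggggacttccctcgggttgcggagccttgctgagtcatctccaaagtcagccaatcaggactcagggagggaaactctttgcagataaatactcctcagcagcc
Cxcl9: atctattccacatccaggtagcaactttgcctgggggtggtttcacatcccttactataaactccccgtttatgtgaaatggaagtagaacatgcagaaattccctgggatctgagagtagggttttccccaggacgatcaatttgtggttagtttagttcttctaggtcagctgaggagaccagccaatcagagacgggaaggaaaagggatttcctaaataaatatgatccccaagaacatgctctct
The response element was searched as GAAANNGAAA and begins at -213 in Cxcl10, and the NF-kB match begins at -159. The STAT motif TTCNNNGAA was searched too. Of all 32851 promoters 3.44% hold the response element and 8.30% the STAT motif. Cxcl9 holds none of the 3 motifs in this window, which says nothing of what lies outside it. Of the 8 members with a promoter in the RefSeq table, Cxcl14 also holds matches, to the response element at -172 and to the STAT motif at -191.

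Cxcl12 fell in the model group relative to the other genes. Cxcl12 (ENSMUSG00000061353, chromosome 6, 117168535 to 117181367 on GRCm38), which retains and guides Cxcr4-bearing cells, stood at 358, 368 and 435 CPM in normal, 219, 229 and 224 CPM in model and 331, 293 and 308 CPM in TA libraries. The 3 groups did not overlap. Cxcl12 fell by 0.79 ± 0.16 in model against normal (adjusted p = 0.00223), but with library totals alone the change was -0.10 (adjusted p = 0.627), so this fall was relative to the TMM scale. TA against model gave 0.47 ± 0.16 (adjusted p = 0.0555), which was called with DESeq2 (0.00581), with limma-voom (0.0405) and without model replicate 2 (0.0471), and turned to -0.10 with library totals (0.638). TA against normal gave -0.32 ± 0.16 (adjusted p = 0.208), which was called with DESeq2 (0.0443).

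Cxcl13 (ENSMUSG00000023078, chromosome 5, 95956951 to 95961068 on GRCm38), the B cell attractant, also fell in the model group. It stood at 3.98, 8.35 and 5.63 CPM in normal, 0.221, 1.79 and 0.476 CPM in model and 0.0604, 1.80 and 1.56 CPM in TA libraries. Every model and every TA library lay below every normal library, and model and TA overlapped. Cxcl13 fell by 2.88 ± 0.83 in model against normal (adjusted p = 0.0137), or by 4.07 without model replicate 2, and its adjusted p was 0.0512 without model replicate 3. TA against normal gave -2.43 ± 0.83 (adjusted p = 0.0681), which 6 of 17 other fits called, over a range of 0.0182 to 0.176. TA against model gave 0.44 ± 0.87 (adjusted p = 0.748).

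Cxcl14 (ENSMUSG00000021508, chromosome 13, 56288643 to 56296551 on GRCm38), an epithelial and stromal ligand of tissue homeostasis, rose instead. It stood at 2.50, 2.64 and 1.19 CPM in normal, 12.8, 12.8 and 19.7 CPM in model and 9.66, 5.96 and 4.17 CPM in TA libraries, with no overlap between any of the groups. Cxcl14 rose by 2.84 ± 0.38 in model against normal (adjusted p = 0.000138) and by 1.66 ± 0.38 in TA against normal (adjusted p = 0.0130), where it was lost without normal replicate 3 (0.0545). It fell by 1.18 ± 0.34 in TA against model (adjusted p = 0.0282). That call was lost without model replicate 1 (0.0545), model replicate 3 (0.125), TA replicate 2 (0.0833) or TA replicate 3 (0.1001), over a range of 0.00569 to 0.125.

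Of the transmembrane ligands, both rose in the model group. Cxcl16 (ENSMUSG00000018920, chromosome 11, 70453983 to 70459984 on GRCm38), which also acts as a scavenger receptor for oxidised lipid, stood at 7.37, 5.79 and 7.33 CPM in normal, 35.6, 21.9 and 35.6 CPM in model and 18.1, 15.9 and 16.4 CPM in TA libraries. The 3 groups did not overlap, and model replicate 2 was the lowest model library. Cxcl16 rose by 2.18 ± 0.21 in model against normal (adjusted p = 1.68e-05) and by 1.30 ± 0.21 in TA against normal (adjusted p = 0.00202), and both calls held in all 17 other fits. It fell by 0.88 ± 0.20 in TA against model (adjusted p = 0.0108), with adjusted p = 0.0503 without model replicate 1 and 0.0504 without model replicate 3, over a range of 0.000998 to 0.0504. Its exons share 552 bases with those of Zmynd15 on the other strand, and 16.9% of its 50-base stretches occur there or in other genes. Zmynd15 rose by 1.56 ± 0.21 in model against normal (adjusted p = 0.000174) at a mean of 3.69 CPM in normal and 10.8 CPM in model. With the use of strand not stated, reads of this overlap cannot be assigned to either gene.

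Cx3cl1 (ENSMUSG00000031778, chromosome 8, 94772009 to 94782427 on GRCm38), fractalkine, stood at 1.40, 1.19 and 0.889 CPM in normal, 9.14, 2.93 and 15.9 CPM in model and 7.67, 2.04 and 1.65 CPM in TA libraries. Every model library lay above every normal library, as did every TA library, and model and TA overlapped widely. It rose by 3.005 ± 0.69 in model against normal (adjusted p = 0.00432), or by 2.38 without model replicate 3. TA against model gave -1.27 ± 0.62 (adjusted p = 0.158), which was called without model replicate 2 (0.0365), without TA replicate 1 (0.0225) and with library totals (0.0482). TA against normal gave 1.73 ± 0.70 (adjusted p = 0.119), which was called with DESeq2 (0.0491).

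In the authors' deposited tables, made with DESeq per the labels, 8 ligands had an adjusted p under 0.05 for model against normal and 2, Cxcl5 and Cxcl16, for TA against model. The authors' deposited table gave adjusted p = 0.0526 for Cxcl14 and 0.236 for Cxcl10 in TA against model.

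Levels can be set side by side between genes only per length, and are given as mean CPM per kilobase of listed gene length. In normal livers Cxcl12 led at 47.3 ± 5.15, and Cxcl1 followed at 38.4 ± 53.6 with libraries that overlapped those of Cxcl12. Next came Cxcl9 at 6.93 ± 2.66 and Cxcl13 at 5.204 ± 1.92, which overlapped each other, then Cxcl16 at 2.26 ± 0.30 and Cxcl10 at 2.08 ± 0.48, which also overlapped. Cxcl14 at 1.15 ± 0.44 lay apart from its neighbours, Cx3cl1 at 0.295 ± 0.0654 and Cxcl2 at 0.118 ± 0.113 overlapped, and Cxcl5 was at 0. In model livers Cxcl12 at 27.4 ± 0.64 lay above all others. Cxcl9 at 11.1 ± 2.97, Cxcl16 at 10.3 ± 2.62, Cxcl14 at 8.27 ± 2.20, Cxcl1 at 7.58 ± 2.598 and Cxcl10 at 5.58 ± 0.41 each overlapped the next in this order. Cxcl5 at 2.83 ± 1.95, Cx3cl1 at 2.38 ± 1.65, Cxcl2 at 1.39 ± 0.57 and Cxcl13 at 0.722 ± 0.733 formed the lower end, each overlapping the next. In TA livers Cxcl12 at 38.0 ± 2.30 again lay above the rest. Cxcl1 at 8.01 ± 6.02, Cxcl9 at 6.93 ± 3.17 and Cxcl16 at 5.56 ± 0.37 overlapped, and Cxcl10 at 3.65 ± 0.15 overlapped Cxcl14 at 3.61 ± 1.53. Cxcl2 at 1.29 ± 0.56, Cxcl13 at 0.992 ± 0.819, Cx3cl1 at 0.964 ± 0.857 and Cxcl5 at 0.224 ± 0.218 were lowest.

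The makeup of the ligand pool, as the share of each gene in the summed CPM per kb of the 10, does not depend on how libraries are scaled. Cxcl12 made up 26.7%, 59.7% and 73.9% of the pool in normal, 34.4%, 39.1% and 33.0% in model and 62.4%, 52.1% and 51.0% in TA replicates 1 to 3. Every model library lay below every TA library, and normal replicate 1 lay below all model libraries, with Cxcl1 at 61.1% of its pool. Cxcl16 made up 1.49% to 3.37% in normal, 10.1% to 15.1% in model and 7.35% to 9.22% in TA libraries, and these ranges did not overlap. Cxcl10 made up 1.52% to 3.06%, 6.33% to 7.76% and 5.16% to 5.50% in the same groups, again with no overlap. Cxcl14 made up 0.836% to 1.92%, 8.97% to 13.02% and 3.09% to 8.16%, also with no overlap. Cxcl13 made up 2.11% to 9.63% in normal, 0.247% to 2.17% in model and 0.0810% to 2.27% in TA libraries, so the normal range overlapped those of both model and TA.

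**Figure D3:**
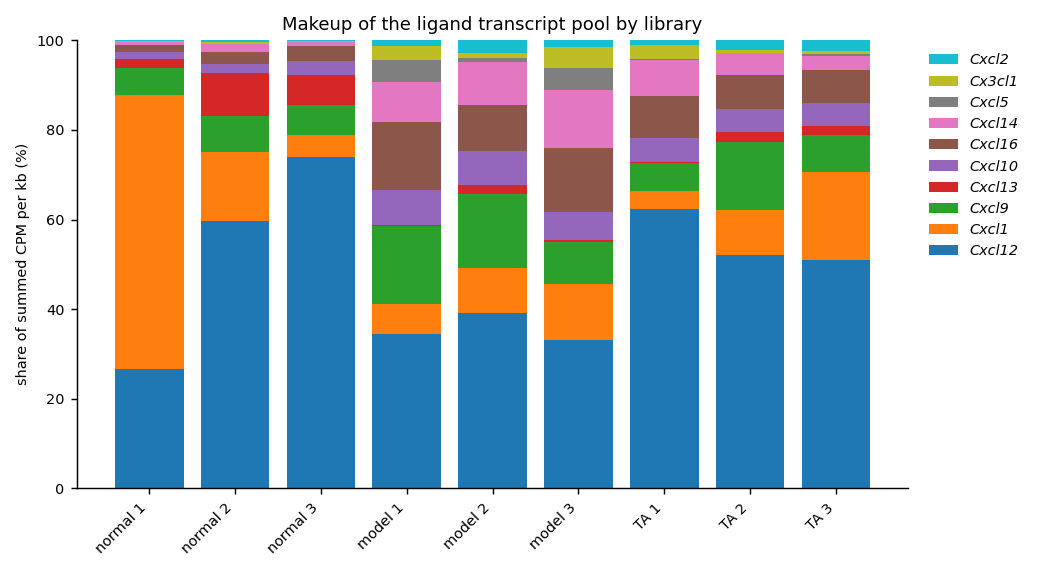
Share of each ligand gene in the summed CPM per kb of the 10 genes (vertical axis, %) in each of the 9 libraries. Cxcl12 takes 33.0% to 39.1% of the pool in model and 51.0% to 62.4% in TA libraries, and Cxcl1 takes 61.1% in normal replicate 1.

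The members differed in which genes had a profile most like theirs over the 9 libraries, measured as the root mean square difference of log2 CPM after each gene was centred on its own mean. Cxcl12 was nearest to Prkcsh (0.0800) and Kdm4b (0.0812), Cxcl10 to Dennd4b (0.109) and Galc (0.133) and Cxcl16 to Eml1 (0.128) and Ralgds (0.144). Cx3cl1 was nearest to Auts2 (0.217) and Fbn1 (0.234), Cxcl9 to Ripor2 (0.228) and Ddx60 (0.246) and Cxcl14 to Tes (0.236) and Relb (0.268). Cxcl5 was nearest to Rbm24 (0.376) and Sult2a2 (0.603) and Cxcl2 to Ttc39a (0.539) and Defb1 (0.566). Cxcl1 and Cxcl13 had no close match, the nearest being Mmd2 (0.720) and Robo1 (0.859) for Cxcl1 and Timd4 (0.856) and Msmo1 (0.864) for Cxcl13. Among the ligands themselves, Cxcl10 and Cxcl16 were the closest pair (0.361), and the ligand nearest to Cxcl1 was Cxcl9, at 1.35. Low measures are easier to reach for genes that vary little, and the SD of log2 CPM over the libraries ranged from 0.353 for Cxcl12 to 2.40 for Cxcl5.

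Of the other CXC ligands, Pf4, platelet factor 4, stood at 0.737, 0.852 and 0.0741 CPM in normal, 4.24, 4.73 and 4.24 CPM in model and 1.93, 2.20 and 3.30 CPM in TA libraries, with no overlap. Pf4 rose by 2.99 ± 0.54 in model against normal (adjusted p = 0.000998) and by 2.16 ± 0.55 in TA against normal (adjusted p = 0.0217), the latter lost without TA replicate 3 (0.0662), and TA against model gave -0.83 ± 0.46 (adjusted p = 0.216), called with library totals (0.0288). Ppbp overlapped between all groups. Cxcl3 was under the filter, with 0 counts in normal, 17 in model and 8 in TA, and Cxcl15 and Cxcl17 had 0 counts in every library. Cxcl11 was looked for by symbol and was not found among the 21898 genes.

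On the receptor side, 5 of 9 tested receptors rose in model against normal and none fell, while 2 rose and 1 fell without model replicate 1 and 3 rose without normal replicate 3. Over all tested genes 25.4% rose and 22.6% fell in the main fit. Cxcr4, the Cxcl12 receptor, rose by 3.96 ± 0.34 (adjusted p = 6.98e-06), while its ligand fell on the same scale. It stood at 1.84, 1.19 and 0.889 CPM in normal, 25.5, 13.3 and 22.7 CPM in model and 9.48, 12.9 and 9.22 CPM in TA libraries, with no overlap between groups. Cx3cr1, carried by monocytes and macrophages, rose by 3.95 ± 0.52 (adjusted p = 0.000133), and by 4.54 with normal replicate 2 left out. It stood at 1.25, 2.64 and 0.741 CPM in normal, 28.2, 13.8 and 28.6 CPM in model and 24.9, 7.84 and 14.8 CPM in TA libraries. Model and TA overlapped for Cx3cr1.

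Cxcr2, Cxcr3 and Cxcr6 were scarce, with 293, 229 and 247 counts over the 3 model libraries. Cxcr2, the neutrophil receptor, rose by 2.17 ± 0.57 (adjusted p = 0.00845), or by 1.42 with adjusted p = 0.0557 without model replicate 1, where it stood at 7.99 CPM against 2.12 and 3.16 CPM in the other model libraries. Cxcr3 rose by 1.36 ± 0.38 (adjusted p = 0.0118) and Cxcr6 by 1.03 ± 0.29 (adjusted p = 0.0135). Both calls were lost without model replicate 1 (0.0502 for Cxcr3, 0.0542 for Cxcr6) and without normal replicate 3 (0.0529 and 0.0574). Of the atypical receptors, which scavenge chemokines, Ackr1 stood at 1.22 ± 0.57 (adjusted p = 0.0970) and Ackr4 at -0.92 ± 0.40 (adjusted p = 0.0803). Ackr1 was called with library totals (0.0172) and Ackr4 without model replicate 1 (0.0310). Ackr3 and Cxcr5 overlapped between all groups, and Cxcr1 was under the filter with 3, 2 and 6 counts in normal, model and TA.

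In TA against model 1 of 9 receptors fell, beside 11.1% of all tested genes. It was Cxcr4, by 0.96 ± 0.28 (adjusted p = 0.0281). The call was lost without model replicate 1 (0.123), model replicate 3 (0.0980), TA replicate 1 (0.0644) or TA replicate 3 (0.0973). Cxcr2 stood at -1.18 ± 0.53 (adjusted p = 0.132), which was called without model replicate 2 (0.0452) and with library totals (0.0218), and Cx3cr1 stood at -0.56 ± 0.42 (adjusted p = 0.358). Cxcr4 and Cx3cr1 also rose in TA against normal, by 2.997 ± 0.34 (adjusted p = 0.000219) and 3.39 ± 0.52 (adjusted p = 0.00144), or 3.99 for Cx3cr1 without normal replicate 2.

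**Figure D4:**
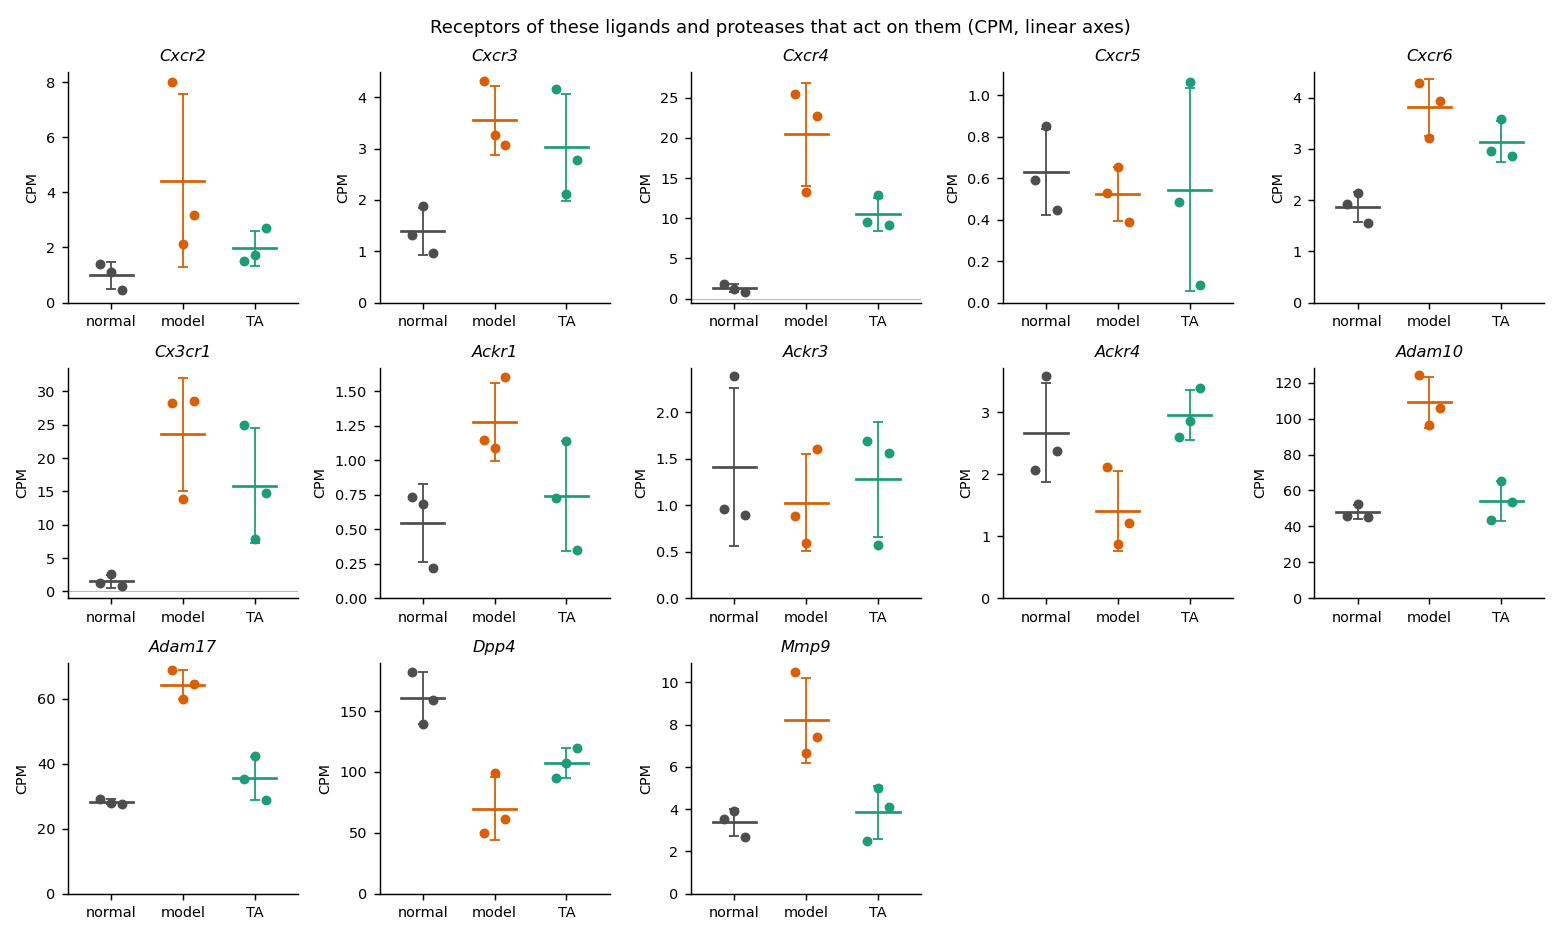
Level in CPM (vertical axes, linear) of the tested receptors and proteases in every library; points are libraries, lines are means and bars are 1 SD (n = 3). For Cxcr4, Adam10 and Adam17 every model library lies above every other library, and Dpp4 stands at 140 to 182 CPM in normal against 49.6 to 99.1 CPM in model libraries.

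All 4 proteases that shed or trim these ligands changed in model against normal, beside 48.1% of all tested genes. In TA against model 23.0% of all tested genes were called, 11.1% lower. Adam10 and Adam17, which release Cxcl16 and Cx3cl1 from the membrane, rose by 1.19 ± 0.18 (adjusted p = 0.000291) and 1.18 ± 0.16 (adjusted p = 0.000128). Mmp9, a gelatinase that also cleaves CXC ligands, rose by 1.28 ± 0.31 (adjusted p = 0.00573). Dpp4, a dipeptidyl peptidase that inactivates Cxcl10 and Cxcl12, fell by 1.20 ± 0.24 (adjusted p = 0.00176), or by 0.54 with library totals (0.0289). Adam10 fell in TA against model by 1.011 ± 0.18 (adjusted p = 0.00391) and Adam17 by 0.86 ± 0.15 (adjusted p = 0.00439). Mmp9 fell by 1.10 ± 0.31 (adjusted p = 0.0261), a call lost without model replicate 1 (0.118), model replicate 3 (0.0583), TA replicate 1 (0.0602) or TA replicate 3 (0.0657). Dpp4 stood at 0.62 ± 0.24 (adjusted p = 0.0781) and was called without model replicate 2 (0.00345).

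Genes that respond to NF-kB and to interferon gamma, and genes of lymphoid tissue, were read as 3 lists. Beside their counts, 25.4% of all tested genes rose in model against normal and 11.1% fell in TA against model. Of the NF-kB targets and inflammatory cytokines, 13 of 16 tested rose and none fell in model against normal, among them Tlr2 at 2.56 ± 0.18 (adjusted p = 2.47e-06) and Tnfaip3, an NF-kB feedback inhibitor, at 2.99 ± 0.26 (adjusted p = 8.69e-06). Against model, 12 of 16 fell in TA, among them Tlr4 at -1.87 ± 0.34 (adjusted p = 0.00467) and Tnfaip2 at -1.09 ± 0.20 (adjusted p = 0.00503). Nfkbia was not called in TA against model (0.046 ± 0.14, adjusted p = 0.838). Normal and model libraries overlapped for Nfkbia, Nfkbiz and Il1b. Means in normal and model were 52.4 and 53.5 CPM for Nfkbia, 17.2 and 23.2 CPM for Nfkbiz and 7.89 and 8.89 CPM for Il1b. Il6, under the filter, had 7 counts in normal and 1 in model. The list medians were 1.58 and -0.86. The number that fell was 7 without model replicate 1, 5 without model replicate 3 and 6 without TA replicate 3. Of the interferon gamma response genes, 11 of 19 rose in model against normal, led by Irf8 (2.79 ± 0.22, adjusted p = 3.70e-06) and Ciita (3.31 ± 0.28, adjusted p = 6.28e-06), and 7 of 19 fell in TA against model, with Irf8 at -1.20 ± 0.20 (adjusted p = 0.00359) and Ciita at -1.32 ± 0.24 (adjusted p = 0.00502). With library totals alone 18 rose and 16 fell in turn. In those fits 8094 of all 13200 genes were called for model against normal, 89.7% of them higher. For TA against model 6116 of all genes were called, 6.56% of them higher. With TMM the number of listed genes that fell was 3 without model replicate 1, 4 without model replicate 3 and 4 without TA replicate 3. Ifng itself had 0 counts in every library. The list also holds the signalling genes Ifngr1, Ifngr2, Jak1 and Jak2. On this list Irgm1 was not called in model against normal (-0.18 ± 0.18, adjusted p = 0.435). Igtp was not called in TA against model (0.042 ± 0.25, adjusted p = 0.919). Means in normal, model and TA were 31.9, 33.9 and 35.0 CPM for Igtp and 68.0, 59.9 and 60.6 CPM for Irgm1. Those of Irgm2 were 69.6, 64.4 and 55.1 CPM. Of the lymphoid tissue genes, 2 of 6 rose in model against normal, Ltb at 2.51 ± 0.33 (adjusted p = 0.000130) and Ccr7 at 1.89 ± 0.42 (adjusted p = 0.00345), while Cxcl13 fell. Irf8, Ciita, Tlr4 and Ltb are also expressed by leukocytes in themselves.

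Markers of the cells that make or follow these ligands were read as lists, each with its own count. For comparison, 25.4% of all tested genes rose and 22.6% fell in model against normal. In TA against model 11.8% rose and 11.1% fell. These shares also stand beside the marker lists in the paragraphs that follow, but not beside counts made with library totals. With library totals 8094 of all 13200 genes were called for model against normal, 89.7% of them higher. For TA against model 6116 of all genes were called, 6.56% of them higher. All 11 macrophage and monocyte markers rose in model against normal, among them Cd68 at 3.39 ± 0.16 (adjusted p = 4.07e-07) and Itgax at 5.32 ± 0.37 (adjusted p = 2.13e-06), and 7 of 11 fell in TA against model, or 11 with library totals, among them Csf1r at -1.33 ± 0.19 (adjusted p = 0.00218) and Cd68 at -0.97 ± 0.14 (adjusted p = 0.00234). Their summed level was 276 to 283 CPM in normal, 1758 to 2029 CPM in model and 779 to 1142 CPM in TA libraries, with no marker at 0. All 8 tested neutrophil markers rose in model, among them Clec4d, also a macrophage gene, at 5.18 ± 0.41 (adjusted p = 4.43e-06) and Csf3r at 2.46 ± 0.44 (adjusted p = 0.000956). Without normal replicate 1 these stood at 6.10 and 3.14, and 5 markers rose without model replicate 3 or without normal replicate 3. Of these, 5 of 8 fell in TA against model, among them Retnlg at -2.84 ± 0.51 (adjusted p = 0.00435) and Ngp at -3.94 ± 1.13 (adjusted p = 0.0283). Only 1 or 2 fell when any model or TA library other than model replicate 2, or normal replicate 2, was left out. The neutrophil sum was 4.59 to 25.3 CPM in normal, 48.9 to 100.1 CPM in model and 25.3 to 38.9 CPM in TA libraries, and the defining marker Ly6g had 0 counts in normal and 9 in model. Within the normal group the neutrophil sum was highest in replicate 1, where Cxcl1 was highest. Most of that sum came from Csf3r, S100a9 and S100a8, at 10.1, 8.76 and 3.39 CPM. Retnlg (0.516 CPM) and Ngp (0.295 CPM) were instead higher in normal replicate 2, at 1.45 and 0.681 CPM. The interferon gamma, NF-kB, B cell, stellate and hepatocyte sums were also highest in normal replicate 1.

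Of the T and NK cell markers, 9 of 12 rose in model, among them Cd8a at 2.95 ± 0.37 (adjusted p = 9.62e-05) and Nkg7 at 2.13 ± 0.39 (adjusted p = 0.00106). None was called in TA against model, where 3 of 12 lay below with no overlap, beside 20.1% of all tested genes. With library totals alone 5 fell, beside 6116 of all 13200 genes called, 6.56% of them higher. The T and NK cell sum was 8.89 to 15.6, 34.7 to 40.9 and 24.6 to 27.3 CPM in normal, model and TA libraries. Of the B and plasma cell markers 1 of 6 rose in model, Cd79b at 1.21 ± 0.38 (adjusted p = 0.0217), a call lost without normal replicate 1 or 2 or model replicate 1 or 3, and none was called in TA against model, with sums of 7.48 to 55.5, 25.1 to 33.3 and 22.8 to 39.2 CPM. Among 5 markers of Kupffer cells, the resident macrophages, Cd5l (2.23 ± 0.39, adjusted p = 0.000767) and Vsig4 (1.39 ± 0.42, adjusted p = 0.0180) rose in model and Timd4 fell (-1.98 ± 0.66, adjusted p = 0.0281). The number that rose was 1 without model replicate 1, normal replicate 2 or normal replicate 3 and 4 without TA replicate 1 or with library totals. The fall of Timd4 was lost without any 1 normal library, model replicate 2 or model replicate 3, and with library totals. In TA against model 3 fell, or 1 without model replicate 1 or TA replicate 3, with Cd5l at -1.79 ± 0.38 (adjusted p = 0.00821), or -2.40 without TA replicate 2.

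Of the stellate cell and fibroblast markers 9 rose and 1 fell of 13 in model, led by Col1a1 at 4.55 ± 0.66 (adjusted p = 0.000247), or 3.91 without model replicate 3, and Col1a2 at 3.54 ± 0.52 (adjusted p = 0.000269). Hhip was the marker that fell (-1.45 ± 0.47, adjusted p = 0.0241). That call was lost without model replicate 1, model replicate 3 or normal replicate 1, and with library totals. Rgs5 fell in TA against model (-0.92 ± 0.27, adjusted p = 0.0296), and the count was 0 without model replicate 1 or 3 or TA replicate 2, 4 without model replicate 2 or TA replicate 1 and 8 with library totals. Of the liver endothelial markers 6 of 11 rose in model, or 3 without model replicate 1 or normal replicate 3 and 11 with library totals, with Lyve1 at 3.54 ± 0.47 (adjusted p = 0.000138) and Stab1 at 1.59 ± 0.22 (adjusted p = 0.000165), and 4 fell in TA against model, or 1 without model replicate 1 or TA replicate 3 and 10 with library totals, with Lyve1 at -1.96 ± 0.43 (adjusted p = 0.00940) and Stab1 at -0.88 ± 0.21 (adjusted p = 0.0138), where Stab1 was lost without model replicate 1 (0.0580) or TA replicate 3 (0.0549). Of the cholangiocyte markers 6 of 8 rose in model, or 2 with limma-voom, with Spp1, osteopontin, at 3.32 ± 0.54 (adjusted p = 0.000564), and none was called in TA against model, where 3 fell without model replicate 2. The cholangiocyte sum was 554, 126 and 493 CPM in model replicates 1 to 3 and 407, 133 and 239 CPM in TA replicates 1 to 3. Within the model group Cxcl5 and Cx3cl1 were also lowest in replicate 2. So were the macrophage, neutrophil, T and NK cell, B cell and stellate sums, while the Kupffer and endothelial sums were lowest in model replicate 3. The hepatocyte sum was highest in model replicate 2. Within the TA group Cxcl5 was lowest in replicate 2 and Cx3cl1 in replicate 3. All 9 tested hepatocyte markers fell in model, with Fgb at -1.71 ± 0.28 (adjusted p = 0.000574) and F2 at -1.46 ± 0.25 (adjusted p = 0.000733), and 8 rose in TA against model, with Ttr at 1.52 ± 0.31 (adjusted p = 0.00706) and Asgr1 at 1.17 ± 0.26 (adjusted p = 0.0104). The number that rose was 3 without model replicate 1, 2 without model replicate 3, 4 without TA replicate 2 or 3 and 3 with library totals. The part of these cell types in the changes of the ligands was not tested.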

How the data were processed

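Per the labels, Trizol was used to extract total liver RNA, and the NEBNext Ultra kit to prepare libraries. The build mm9 comes from the submitters' processing notes. For the aligner, the read counter and its strand setting, the sources used here give no name. The authors deposited raw read counts per gene, which were used for all tests. The authors' FPKM values in the same table were not used. The authors' deposited DESeq tables for 2 comparisons list, per gene, the fold ratio between groups, a p-value and an adjusted p-value.

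The members and gene lists were chosen with earlier results of these data known. Tests used edgeR 4.0.16 under R 4.3.3. After filterByExpr (minimum count 10, minimum total 15), counts were scaled with TMM and fitted in 1 quasi-likelihood model of all 9 libraries with group as the only factor. The standard error is the absolute log2 fold change divided by the root of the F statistic. Named genes were all members, the listed ligands, receptors and proteases, in each other list the 2 genes of smallest p and the one of smallest p in the rarer direction, 2 nearest profiles per member (mean CPM of at least 1, prior count 2) and the genes whose exons overlap a member. Of the genes in the rarer direction, those not called are not printed, apart from Irgm1, Igtp and Nfkbia. Coordinates are those of GENCODE M21 on GRCm38. Alternatives were run with DESeq2 1.42.0, limma 3.58.1 and other settings. The procedure was tested on simulated data with 200 changed genes. Pairs of replicates differed by more than sampling noise (chi-square per degree of freedom 29.3 or more), so each counted as 1 sample. Floors cover counting error only.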

Additional observations from a re-analysis of the deposited data

How the results depend on the processing

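Of the 17 other settings, none moved the number of ligands called for model against normal beyond 7 to 9, and all 17 kept the rises of Cxcl2, Cxcl5, Cxcl10, Cxcl14, Cxcl16 and Cx3cl1. Leave-one-out fits gave 0 to 5 ligands (1436 to 3793 genes in all) for TA against model and 2 to 6 ligands (1092 to 2467 genes) for TA against normal. With library totals alone 6116 genes were called for TA against model. With the DESeq2 test 8 ligands were called for TA against normal. The share of higher genes among those called was 89.7% for model against normal, 6.56% for TA against model and 78.4% for TA against normal with library totals. No label ties equal replicate numbers together, and after removal of group means a correlation over 0.1 was found for 1 of 9 pairs of equal number. With the replicate number as a block, 5711, 2294 and 1575 genes were called in the 3 comparisons, and 8, 3 and 6 ligands. In that fit the adjusted p for TA against model was 0.0573 for Cxcr4, 0.0520 for Mmp9 and 0.0771 for Cxcl10, 1 neutrophil marker fell there, and Cxcl5 was called for TA against normal (0.0283). The fall of Hhip in model against normal was lost in the same fit. Ligand values that were not called changed sign in some fits. Leaving out 1 library gave Cxcl1 values of -2.89 to 0.00222 for model against normal, -0.68 to 0.49 for TA against model and -3.03 to 0.0719 for TA against normal. It gave -0.42 to 0.26 for Cxcl2 and -0.0999 to 1.63 for Cxcl13 in TA against model, and -0.43 to 0.34 for Cxcl9 in TA against normal. In TA against model, library totals gave -0.59 for Cxcl1, -0.10 for Cxcl12 and -0.11 for Cxcl13, and limma-voom gave -0.31 for Cxcl1 and -0.0526 for Cxcl13. In TA against normal, Cxcl9 was 0.0907 with library totals and 0.0135 with the replicate block. The cause of these changes was not tested. Ligands with few counts, Cxcl5 and Cxcl2 in normal and Cxcl13 in model and TA, are limited by depth.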

Other observations

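Cxcl1 in normal replicate 1 was looked at after its values were seen. Its CPM there was 8.61 times that of the higher of the other normal libraries, and of 11612 tested genes with a mean of at least 1 CPM in normal livers, 1 had a larger ratio. That gene was Mt1, a metallothionein of zinc and stress response, at 310 CPM in normal replicate 1 against 30.7 and 4.44 CPM in normal replicates 2 and 3. Rgs16, a regulator of G protein signalling that varies with feeding and time of day in liver, followed at 112, 14.1 and 3.999 CPM. Lrtm1, 1810046K07Rik, Tcf24 and Chrna4 came next by this ratio, ahead of the neutrophil gene S100a8 at 3.39, 0.681 and 0.667 CPM. Over the 11612 genes 96 had a ratio over 2, and the median ratio was 0.924. Cxcl9 had a ratio of 1.63 and Cxcl10 of 1.13 in the same library. What these values share was not tested.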
